A study of Mus musculus with 2 samples.

Results

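Vascular endothelial growth factor (VEGF) receptors, their co-receptors and their ligands were followed through the yolk sac PK44 cells of E10.0 mouse embryos. The group was chosen by name and held 8 of the 23154 genes in the files: the receptor kinase genes *Kdr*, *Flt1* and *Flt4*, the neuropilin genes *Nrp1* and *Nrp2*, the plexin gene *Plxnd1*, and the ligand genes *Vegfa* and *Vegfc*. PK44 cells were sorted as CD41-CD43-CD45-CD31+CD201+Kit+CD44+ from embryos on a C57BL/6 background. The study takes this population as hemogenic endothelial cells, that is, endothelial cells able to give rise to blood. In its single-cell cultures, more yolk sac PK44 cells of E10.0 gave only endothelium than gave any blood. Single cells were profiled by modified STRT-seq, which reads 3′ tags and counts transcripts by unique molecular identifiers, in 2 libraries. Replicate 1 held 43 cells with 8932527 counts (13218 to 702028 per cell, median 141577) and replicate 2 held 44 cells with 12706360 counts (51620 to 956593 per cell, median 238898). The libraries shared 0 cell numbers, all 87 cells are of this single condition, and the sources used here do not say whether the libraries came from separate pools of embryos. The endothelial markers were present in both libraries, as *Cdh5*, the gene of VE-cadherin, had a count in 43 of 43 and 44 of 44 cells and *Pecam1* (CD31) in 42 of 43 and 44 of 44. In 3 cells, 2 of replicate 1 and 1 of replicate 2, at least 100 counts were found of each of the matrix genes *Lum*, *Col3a1*, *Col1a2* and *Col1a1*.

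VEGF receptors are tyrosine kinases of endothelial cells. KDR (VEGFR2) carries most of the growth, survival and migration signal of VEGF-A and is needed for the first endothelial and blood cells of the yolk sac, FLT1 (VEGFR1) binds VEGF-A tightly with weak kinase activity and in its soluble form acts as a decoy, and FLT4 (VEGFR3) is the receptor for VEGF-C. Neuropilins have no kinase and hold ligands next to the receptors, NRP1 with KDR and mostly in arteries, NRP2 with FLT4 and mostly in veins and lymphatics. Neuropilins and plexin D1 are also receptors for semaphorins, which guide vessels. RUNX1 is the transcription factor required for the passage from endothelium to blood.

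Levels are given as CPM, counts scaled to the same total in every library. As each transcript gives a 3′ tag, CPM was not divided by gene length, and genes are compared on this tag scale. *Kdr* (chromosome 5 of GRCm38, 75932827 to 75978458, minus strand) stood at 393 CPM (replicate 1) and 569.6 CPM (replicate 2), a mean level of 481 ± 125 CPM (SD, n = 2 libraries). *Flt1* (chromosome 5, 147561604 to 147726011, minus strand) followed at 191 and 232 CPM, a mean of 212 ± 29.4 CPM. *Flt4* (chromosome 11, 49609263 to 49652739, plus strand) reached 21.9 CPM (replicate 1) and 90.8 CPM (replicate 2), a 4.14-fold gap between libraries. The level of *Flt4* therefore depended on the library, while *Kdr* and *Flt1* lay within 1.45-fold and 1.22-fold of each other in the 2 libraries. *Kdr* was detected in 34 of 43 cells in replicate 1 and in all 44 in replicate 2, together 89.7% of cells (exact 95% interval 81.3% to 95.2%, counting error only). *Flt1* had a count in 80.5% of cells (70.6% to 88.2%) and *Flt4* in 59.8% (48.7% to 70.1%). By library, *Flt1* was in 29 of 43 and 41 of 44 cells, while *Flt4* was in 15 of 43 (34.9%) and 37 of 44 (84.1%), so the share over both describes neither library. Depth and library both moved these shares. With every cell thinned to 20000 counts, *Kdr* was detected in 23 of 42 cells in replicate 1 and in 41 of 44 in replicate 2.

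*Nrp1* (chromosome 8, 128358604 to 128503363, plus strand) had the highest mean of the 8 genes, at 506 CPM (replicate 1) and 651 CPM (replicate 2), a mean of 578 ± 102 CPM, and was detected in 86 of 87 cells. *Plxnd1* (chromosome 6, 115954811 to 115995005, minus strand) came next at 461 and 636 CPM, a mean of 548 ± 123 CPM, and was detected in 87 of 87 cells. The means of *Nrp1*, *Plxnd1* and *Kdr* differed by less than their SD over libraries, but *Kdr* lay below the other 2 within each library. The order of *Nrp1* and *Plxnd1* is not set, as without the 3 collagen-rich cells *Plxnd1* (561 CPM) had a higher mean than *Nrp1* (557 CPM). *Nrp2* (chromosome 1, 62703285 to 62818695, plus strand) was far lower, at 57.5 and 71.4 CPM, and was detected in 46 of 87 cells. Its mean of 64.5 ± 9.79 CPM and that of *Flt4* (56.4 ± 48.7 CPM) differed by less than the SD of *Flt4*.

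Of the ligands, *Vegfc* (chromosome 8, 54077606 to 54187096, plus strand) was the more abundant, at 141 CPM (replicate 1) and 185 CPM (replicate 2), and was detected in 74 of 87 cells. Its mean was 163 ± 31.2 CPM, and it lay below *Flt1* in both libraries. *Vegfa* (chromosome 17, 46016993 to 46032369, minus strand) stood at only 27.5 CPM (replicate 1) and 8.81 CPM (replicate 2). Only 7 of 87 cells held 10 or more counts of *Vegfa*, and 2 cells held 193 of its 246 counts in replicate 1 (78.5%). *Vegfa* was the single gene of the 8 that was lower in replicate 2. Among the other ligands, *Vegfb*, which binds FLT1, had 48.4 and 52.7 CPM with a count in 40 of 87 cells. The placental growth factor gene *Pgf*, another FLT1 ligand, had counts in 2 of 87 cells. *Figf* (VEGF-D) had 0 counts in both libraries, which allows up to 0.336 CPM in replicate 1 and 0.236 CPM in replicate 2. On the tag scale, then, each receptor and co-receptor gene stood above *Vegfa* in both libraries, except *Flt4* in replicate 1 (21.9 against 27.5 CPM), and *Vegfc* led the ligands.

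**Figure D1:**
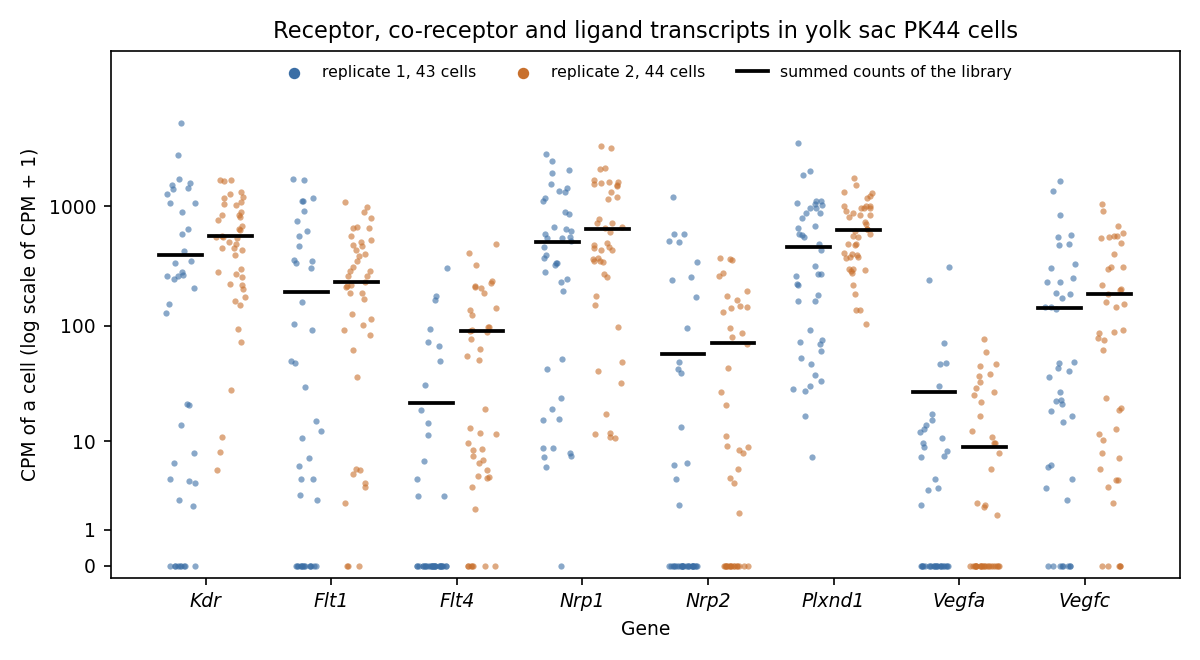
CPM of single cells (vertical axis, log scale of CPM + 1) for each of the 8 genes, with points for the 43 cells of replicate 1 and the 44 cells of replicate 2 and black lines for the summed counts of each library. *Nrp1*, *Plxnd1* and *Kdr* lie highest, *Flt4* differs between the libraries (21.9 and 90.8 CPM), and most cells have few or no counts of *Vegfa*.

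In the sums of cells divided by *Runx1*, given below, *Kdr* and *Nrp1* were called lower where *Runx1* was high, and *Flt1* fell just short of the threshold. These calls depended on the settings, as also given below. The bases before the starts of the 3 genes are shown, from RefSeq (GRCm38.p6), 5′ to 3′ on the gene's strand and ending just before the first exon base. The windows are chr5:75978459-75978705 for *Kdr*, chr8:128358823-128359072 for *Nrp1*, which lies between exons of a longer transcript, and chr5:147726012-147726261 for *Flt1*. Capitals mark AGGAAG, a core bound by ETS factors, on either strand.
Kdr: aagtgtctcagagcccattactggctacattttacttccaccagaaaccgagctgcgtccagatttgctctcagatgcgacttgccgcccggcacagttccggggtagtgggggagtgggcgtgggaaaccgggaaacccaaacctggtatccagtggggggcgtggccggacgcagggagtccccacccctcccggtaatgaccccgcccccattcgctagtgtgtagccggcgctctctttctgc
Nrp1: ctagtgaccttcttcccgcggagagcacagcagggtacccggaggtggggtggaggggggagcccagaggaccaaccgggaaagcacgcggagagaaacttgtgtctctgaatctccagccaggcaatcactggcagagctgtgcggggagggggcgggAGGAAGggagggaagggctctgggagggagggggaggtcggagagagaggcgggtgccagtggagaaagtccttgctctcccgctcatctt
Flt1: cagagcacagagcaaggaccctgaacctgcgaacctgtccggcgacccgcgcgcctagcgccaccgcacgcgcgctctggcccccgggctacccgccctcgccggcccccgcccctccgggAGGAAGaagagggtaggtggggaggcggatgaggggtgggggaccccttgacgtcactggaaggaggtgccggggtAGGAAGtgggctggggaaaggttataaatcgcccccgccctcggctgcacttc
All 8 genes matched the RefSeq table, with 9 windows since *Vegfa* has 2. The window of *Flt4* lay wholly within annotated exons (250 of its 250 bases), 1 window of *Vegfa* had 218 of 250 bases in exons, and those of *Nrp2* and *Kdr* had 32 and 3. AGGAAG stood 91 bases before the start of *Nrp1* and 129 and 53 bases before that of *Flt1*, was not in the window of *Kdr*, and was in 3 of the 9 windows, against 29.6% of 32536 promoter windows of 250 bases. The RUNX core TGTGGT was in 0 of the 9 windows, against 14.0% of all. ACGTG, the core of the hypoxia response element, was only in the *Vegfa* window that lies mostly in exons, against 16.7% of all. A match or its lack describes only the letters of these windows.

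Within a library, cells were compared by Spearman correlation of their CPM, as a description over 43 and 44 cells that share a library and differ in depth. *Kdr* and *Nrp1* went together in both libraries (0.41 in replicate 1 and 0.37 in replicate 2), as did *Flt1* and *Nrp1* (0.32 and 0.53), *Flt1* and *Vegfc* (0.37 and 0.32) and *Nrp1* and *Vegfc* (0.36 and 0.77). These were the 4 of 28 pairs above 0.3 in both libraries. With cells thinned to 20000 counts 2 pairs were, *Flt1* and *Nrp1* (0.40 and 0.47) and *Nrp1* and *Plxnd1* (0.32 and 0.44), while *Kdr* and *Nrp1* stood at 0.42 and 0.28, *Flt1* and *Vegfc* at 0.18 and 0.32 and *Nrp1* and *Vegfc* at 0.24 and 0.73. With 50000 counts per cell, 6 pairs were above 0.3 in both, including the 4. Of the 28 pairs, 19 were positive in both libraries, 3 were negative in both and 6 had opposite signs, with a median of 0.19 in replicate 1 and 0.23 in replicate 2. *Nrp1* and *Nrp2* stood at -0.12 and -0.16, and at -0.13 and 0.053 by Pearson correlation of log2(CPM + 1). Cells with 10 or more counts of *Nrp2* also had 10 or more of *Nrp1* in 6 of 10 cases in replicate 1 and in 18 of 18 in replicate 2. Among all cells, 29 of 43 and 37 of 44 had 10 or more counts of *Nrp1*. *Flt4* and its ligand gene *Vegfc* stood at 0.21 in replicate 1 and -0.16 in replicate 2. At 10 or more counts, *Kdr* and *Nrp1* were found in the same cell in 20 of 43 and 36 of 44 cells, *Kdr* and *Flt1* in 12 and 33, and *Nrp1* and *Vegfc* in 16 and 25. Taken singly, *Kdr* reached 10 counts in 23 and 39 cells, *Flt1* in 16 and 35 and *Vegfc* in 19 and 27. None of the 3 receptor genes reached 10 counts in 16 cells of replicate 1 and 3 cells of replicate 2.

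**Figure D2:**
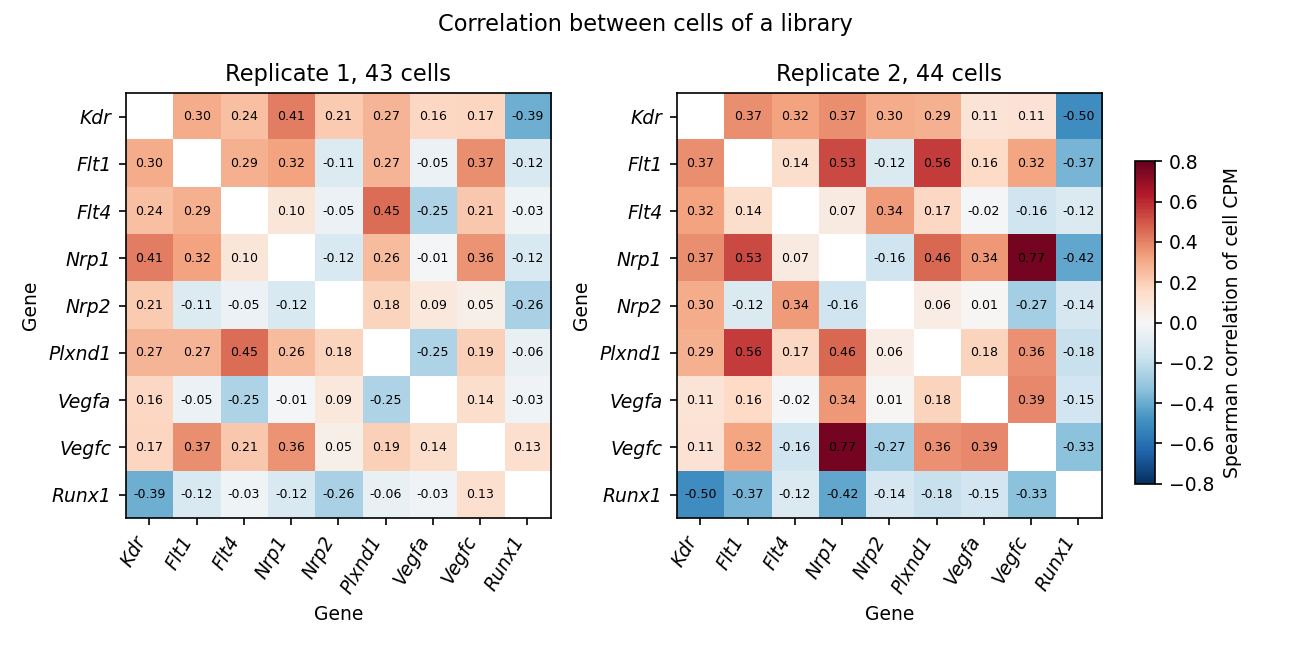
Spearman correlation of cell CPM between the 8 genes and *Runx1* in replicate 1 (43 cells) and replicate 2 (44 cells), with red for positive and blue for negative values. *Nrp1* and *Vegfc* have the highest value between the 8 genes in replicate 2 (0.77 against 0.36 in replicate 1), and *Kdr* has the lowest value with *Runx1* in both (-0.39 and -0.50), with all counts used.

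*Nrp1* and *Vegfc* shared cells with arterial genes, most clearly in replicate 2. *Nrp1* correlated with the arterial connexin genes *Gja4* (0.21 in replicate 1 and 0.82 in replicate 2) and *Gja5* (0.28 and 0.76), and with the Notch ligand gene *Dll4* (0.23 and 0.64). *Vegfc* correlated with *Gja5* at 0.21 and 0.76 and with *Dll4* at 0.45 and 0.62, and thinned to 20000 counts at 0.057 and 0.70 with *Gja5* and 0.53 and 0.52 with *Dll4*. In replicate 2, the 14 cells above 1000 CPM of *Nrp1*, a level chosen after the values were seen, had a median of 1806 CPM of *Gja5* and 551 CPM of *Vegfc*, against 67.1 and 19.3 CPM in its other 30 cells. In replicate 1, the 10 such cells had medians of 67.6 CPM of *Gja5* and 187 CPM of *Vegfc*, against 9.67 and 22.9 CPM in the other 33. Of these 10 cells 2 were collagen-rich, and the other 8 had medians of 109.8 CPM of *Gja5* and 336 CPM of *Vegfc*, a comparison chosen after seeing the data. *Nrp1* was also lower in deeper cells (-0.26 and -0.29 with total counts), and thinned to 20000 counts its values with *Gja5* were 0.31 and 0.78. With the summed CPM of the marker lists *Nrp1* stood at 0.60 and 0.79 for the arterial, 0.47 and 0.69 for the endothelial and 0.25 and 0.29 for the venous list. In replicate 1 the general endothelial genes *Cdh5* (0.43) and *Tek* (0.40) lay above the single arterial genes named, and the venous gene *Nr2f2* (0.24, and -0.083 in replicate 2) lay among them. The endothelial gene *Pecam1* (-0.023) and the venous genes *Aplnr* (-0.042) and *Ephb4* (0.16) lay below them. Single genes thus gave a mixed picture there. *Nrp2* went instead with *Lyve1*, a hyaluronan receptor gene of yolk sac and lymphatic endothelium (0.46 and 0.53). With the venous receptor gene *Aplnr* it reached 0.51 in replicate 2 but 0.00 in replicate 1.

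**Figure D3:**
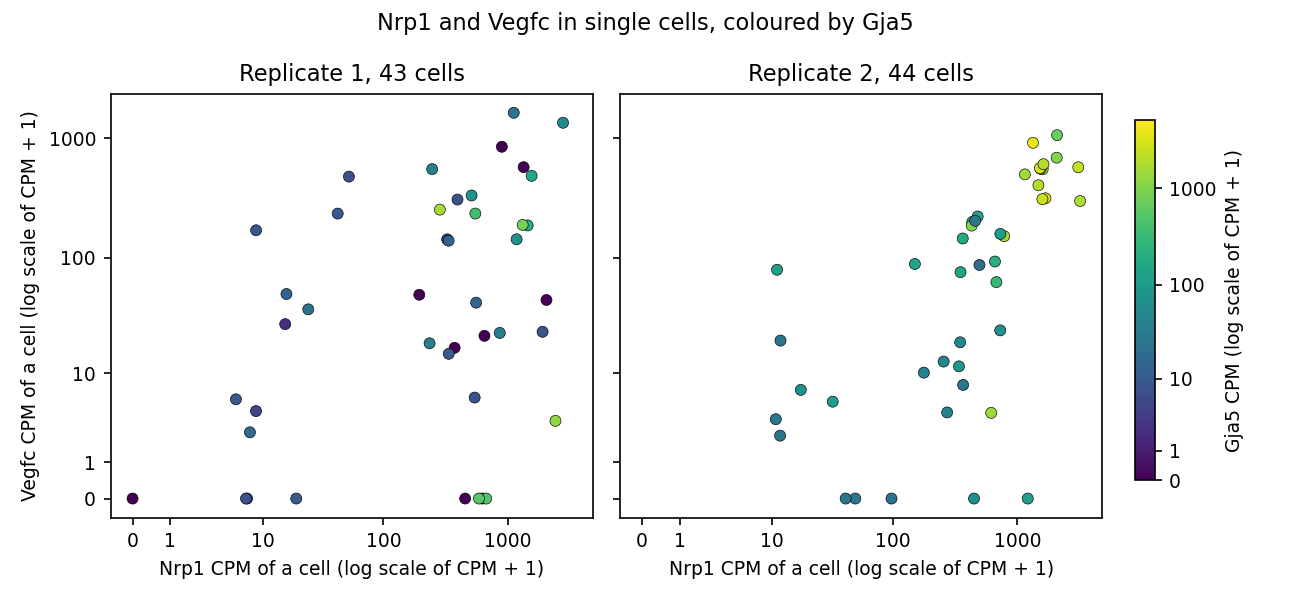
*Vegfc* against *Nrp1* in single cells (both axes CPM, log scale of CPM + 1), coloured by *Gja5*, with one panel for each library. In replicate 2 the cells above 1000 CPM of *Nrp1* mostly have high *Vegfc* and *Gja5* (medians 551 and 1806 CPM), and in replicate 1 the relation is looser.

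*Flt1* went with *Gja4* in both libraries (0.61 and 0.49), but the other arterial genes were weaker in replicate 1. *Gja5* stood at -0.015 and 0.37 (0.26 and 0.25 thinned to 20000 counts), *Efnb2* at 0.19 and 0.51 and *Dll4* at 0.27 and 0.26. With the general endothelial gene *Cdh5*, *Flt1* stood at 0.36 and 0.63. *Flt1* was also lower in deeper cells of replicate 2 (-0.54 with total counts, -0.12 in replicate 1). Thinned to 20000 counts per cell, its values with *Gja4* were 0.63 and 0.46. *Kdr* went with the general endothelial genes *Cdh5* (0.51 and 0.41) and *Tek*, the angiopoietin receptor gene (0.48 and 0.41), and against the stem cell factor receptor gene *Kit* (-0.55 and -0.44). Thinned to 20000 counts these were 0.53 and 0.28 with *Cdh5*, 0.41 and 0.22 with *Tek* and -0.56 and -0.36 with *Kit*. The 3661 genes with a count in at least 50% of the cells of each library were ranked by the weaker of their 2 correlations. The 5 most like *Kdr* were *Marcks*, *Cldn5*, *Sepp1*, *Stab1* and *Plk2*, and the 5 most unlike were *Nhp2*, *Plcg2*, *Gapdh*, *Kit* and *Npm1*. For *Nrp1* they were *Col4a1*, *Sparc*, *Epas1*, *Cldn5* and *Col4a2* at the upper end and *Nhp2*, *Rpl13*, *Ncl*, *Wdr18* and *Plcg2* at the lower. *Nhp2*, a gene of ribosome assembly, ranked first among the unlike for both, at -0.58 and -0.65 with *Kdr* and -0.48 and -0.52 with *Nrp1*. With *Nrp1* its rank was shared in all but name by *Rpl13* (-0.58 and -0.48), which was the lower in replicate 1.

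*Runx1* stood at 300.4 CPM (replicate 1) and 136 CPM (replicate 2). With all counts, *Kdr* had the most negative Spearman correlation with it, -0.39 in replicate 1 and -0.50 in replicate 2. With cells thinned to 20000 counts *Kdr* stood at -0.31 and -0.22, and in replicate 2 *Nrp1* (-0.46), *Flt1* (-0.45), *Vegfc* (-0.41) and *Plxnd1* (-0.31) were then more negative than *Kdr*. *Nrp1* stood at -0.12 and -0.42 and *Flt1* at -0.12 and -0.37, both weaker in replicate 1, where *Nrp1* came to -0.076 with cells thinned to 20000 counts and -0.28 with 50000. *Nrp2* stood at -0.26 and -0.14. *Vegfc* had opposite signs in the libraries (0.13 and -0.33), also with cells thinned to 20000 counts (0.12 and -0.41) but not to 50000 counts (-0.16 and -0.32), which left out 7 cells of replicate 1, and *Flt4*, *Plxnd1* and *Vegfa* lay between -0.18 and -0.03. *Runx1* itself was higher in cells with more counts (0.34 and 0.35).

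Cells were then divided at the median *Runx1* CPM of their library (52.2 CPM in replicate 1 and 10.03 CPM in replicate 2) into 21 Runx1-high and 22 Runx1-low cells of replicate 1 and 22 of each in replicate 2. These are ranges of one gene and not cell types, and 11 and 9 cells lay within 2-fold of the median. Counts were summed per library and class and compared by edgeR's quasi-likelihood test with the library as a term. *Runx1* set the classes and was not tested. *Kdr* had 169 CPM in Runx1-high and 801 CPM in Runx1-low cells of replicate 1, and 422 and 789.7 CPM in replicate 2. *Nrp1* had 342 and 804 CPM in replicate 1, and 372 and 1065 CPM in replicate 2. Both genes were lower in the Runx1-high sum of each library. The Runx1-high values lay below all Runx1-low values over the 2 libraries for these and 4 more of the 8 genes (*Flt1*, *Nrp2*, *Plxnd1* and *Vegfc*), 6 of 8, against 1820 of the 10629 genes tested (17.1%). Single cells did overlap, as *Kdr* ran from 5.36 to 1665 CPM in Runx1-high and from 149.6 to 1648 CPM in Runx1-low cells of replicate 2, with medians of 269 and 752 CPM. *Kdr* fell by 1.61 on the log2 scale (standard error 0.33, adjusted p = 0.000241) and *Nrp1* fell by 1.41 (standard error 0.30, adjusted p = 0.000839), with edgeR p-values adjusted after Benjamini and Hochberg over 10629 genes.

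**Figure D4:**
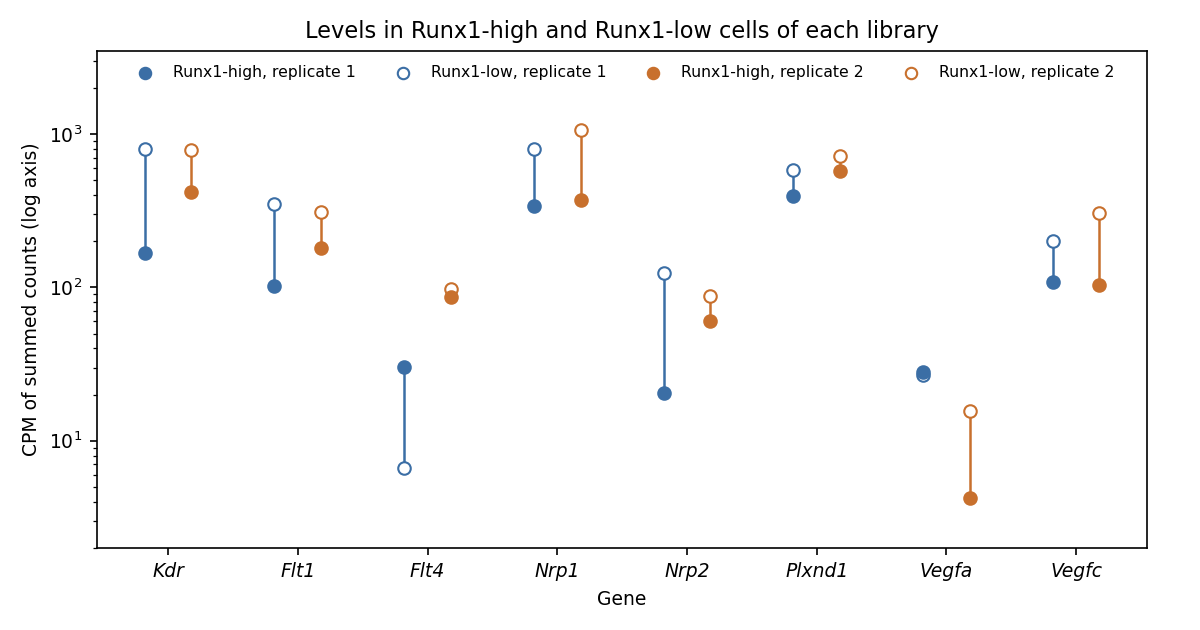
CPM of the summed counts (vertical log axis) of Runx1-high cells (filled) and Runx1-low cells (open) in each library, joined by a line, for the 8 genes. *Kdr*, *Nrp1*, *Flt1*, *Nrp2*, *Vegfc* and *Plxnd1* are lower in Runx1-high cells of both libraries, while *Flt4* and *Vegfa* have opposite directions in the 2 libraries.

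All 8 genes passed the low-count filter. Of these, 2 were called, both lower in Runx1-high cells, against 166 of all 10629 genes (1.56%), of which 126 were lower (1.19%) and 40 higher (0.376%). The median log2 fold change of the 8 was -1.28, against 0.067 over all genes tested. Besides *Kdr* and *Nrp1*, 4 genes were lower in both libraries without passing. *Flt1* had 102 CPM in Runx1-high and 352 CPM in Runx1-low cells of replicate 1, and 179.8 and 311 CPM in replicate 2, a log2 fold change of -1.32 (adjusted p = 0.0557 by the same edgeR test). *Vegfc* had 109 and 199.8 CPM, then 104 and 305 CPM (-1.25, adjusted p = 0.147 by edgeR). *Nrp2* (-1.60) had 20.5 and 125 CPM, then 60.4 and 87.8 CPM, and its gap was mostly one of replicate 1. *Plxnd1* was the nearest to level of the 4, at -0.47. *Flt4* had 30.4 against 6.62 CPM in replicate 1 and 86.1 against 97.8 CPM in replicate 2, so its direction depended on the library. Its log2 fold change was 0.93, and 0.056 when the median was taken anew without the collagen-rich cells, which moved 1 cell with 35 of the 196 *Flt4* counts of replicate 1 to the other class. With those cells left out and the division unchanged it was 0.82. *Vegfa* had 27.95 against 26.8 CPM and 4.21 against 15.7 CPM, from few cells.

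These calls depended on the library term. Without it, edgeR called 1 of 10629 genes (0.00941%) and 0 of the 8, of which 4 had an unadjusted p under 0.05, and the adjusted p was 0.776 for *Kdr* and 0.663 for *Nrp1*. DESeq2 with the library term called 2 of the 8. Over all alternatives the adjusted p ran from 8.62e-05 to 0.776 for *Kdr* and from 2.59e-05 to 1.00 for *Nrp1*. Depth moved with the classes, with medians of 260240 counts in Runx1-high and 95376 in Runx1-low cells of replicate 1 and of 271734 and 213444 in replicate 2. With cells thinned to 20000 counts before the sums, *Kdr* was called at -1.61 (edgeR, adjusted p = 0.000363), while *Nrp1* was not, at -0.86 (adjusted p = 0.108). With cells thinned before both the division and the sums neither was called by edgeR, *Kdr* at -1.50 (adjusted p = 0.0558) and *Nrp1* at -1.08 (adjusted p = 0.0969). All 3 collagen-rich cells were Runx1-low, with 1889.8, 1172 and 660.4 CPM of *Nrp1* and 7.81, 0.00 and 149.6 CPM of *Kdr*. Without them, and with the median taken anew, which moved 1 cell of each library between classes, both genes were called by edgeR, *Kdr* at -1.73 (adjusted p = 0.000222) and *Nrp1* at -1.51 (adjusted p = 0.000853), and *Flt1* passed as well, at -1.71 (adjusted p = 0.00868, over its alternatives 0.00868 to 1.00). With the division unchanged, an alternative chosen after seeing the data, the edgeR values were -1.74 for *Kdr* (adjusted p = 8.94e-05), -1.35 for *Nrp1* (adjusted p = 0.00314) and -1.45 for *Flt1* (adjusted p = 0.0362). The 4 sums leave 1 residual degree of freedom, and edgeR gave genes of like level one common spread, so each gene's own variation between libraries had little weight in the p-values.

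Other cell markers moved with the classes. All 8 endothelial markers had a log2 fold change below 0 in Runx1-high cells, and 3 were called lower (*Cdh5*, *Tek* and *Cldn5*). The summed level of the 8 was 1899.6 against 3397 CPM in replicate 1 and 3366 against 5924 CPM in replicate 2. All 8 arterial markers were below 0 and 6 were called lower, led by *Gja5* at -2.89 (adjusted p = 4.17e-13 by edgeR) and *Dll4* at -2.71. The arterial list summed to 278 against 1599 CPM and 903 against 3470.4 CPM. All 3 venous markers were below 0, with *Aplnr* called lower by edgeR (-2.63) and 2 called by DESeq2. *Nr2f2*, with counts in 8 and 7 cells, was at -5.51 (edgeR, adjusted p = 0.07) and *Ephb4* at -0.76, and neither passed by edgeR. Of 9 hematopoietic markers, *Kit* (1.95), *Adgrg1* (2.25) and *Neurl3* (2.13) were called higher and 0 lower, while *Itga2b* (CD41) had 13.0 against 159 CPM in replicate 1 and 30.8 against 48.2 CPM in replicate 2 and did not pass (-2.15, edgeR adjusted p = 0.25). The list had summed levels of 1159 against 824 CPM and 789 against 123 CPM. Without the collagen-rich cells and with the division unchanged, *Kit* was at 1.84 and no longer passed (edgeR, adjusted p = 0.0531). The fall of *Kdr* and *Nrp1* thus came with that of other endothelial genes, and the part of either in the other was not tested. All 5 mesenchymal markers were below 0 and 4 were called lower, with 48.4 against 2250 CPM in replicate 1 and 23.3 against 786 CPM in replicate 2. *Col1a2* and *Col1a1* were the most abundant, and *Pdgfra* was at 9.52 and 1.495 CPM. The 3 collagen-rich cells, picked by 4 of these genes and all Runx1-low, held 93.9% and 92.6% of the counts. Without them, as chosen after seeing the data, the sums were 48.4 against 61.7 CPM and 23.3 against 26.9 CPM, and 0 of 4 tested were called by edgeR (0 at an unadjusted p under 0.05), so these calls rest on those cells. DESeq2 was not run without them. Of 6 macrophage markers 2 were tested and *Mrc1*, which sinusoidal and lymphatic endothelium also express, was lower by edgeR (-1.74, adjusted p = 0.0349), with log2 ratios of -3.05 in replicate 1 and -0.38 in replicate 2, and was not called by DESeq2 (adjusted p = 0.0866). The other, *Lyz2*, had 80.9 against 33.7 CPM and 39.1 against 10.2 CPM and did not pass (1.56, edgeR adjusted p = 0.774), while *Cx3cr1*, *C1qa* and *C1qb* were at 0 in both libraries. Erythroid, visceral endoderm and megakaryocyte markers had 0 calls among the 3, 2 and 1 genes tested by edgeR (0 at an unadjusted p under 0.05 and 0 by DESeq2). Erythroid markers had 18.2 CPM in Runx1-high and 4.41 CPM in Runx1-low cells of replicate 1, and 33.1 and 6.47 CPM in replicate 2. Megakaryocyte markers, mostly *Pf4*, had 1.04 and 11.7 CPM, then 79.0 and 0.588 CPM. Visceral endoderm markers were at 0 in replicate 1 and had 19.5 and 11.95 CPM in replicate 2.

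The rest of the pathway was read from 9 lists of 124 genes, of which 105 were tested. In them 9 genes were called lower and 0 were called higher in Runx1-high cells (8.57% called, against 1.56% of all genes). Of the 9, 5 are also endothelial or arterial markers counted above (*Cdh5*, *Tek*, *Efnb2*, *Dll4* and *Sox17*). Of the 99 tested genes in none of the marker lists used here 4 were called (4.04%), *Ptprb*, *Epas1*, *Plxnb1* and *Lyve1*. The study scored *Epas1* as an endothelial gene and named *Lyve1* as a yolk sac endothelial marker, so this share still holds endothelial genes. Signal transducers below the receptors, from *Plcg1* to the MAP kinases, had 0 calls among 36 tested by edgeR, with 3 at an unadjusted p under 0.05 and 0 by DESeq2. *Cdc42*, *Rac1*, *Rhoa* and *Hspb1* were their most abundant genes, *Cdc42* with 521 and 643 CPM. Junction partners and phosphatases had 8 of 9 below 0 and 3 called lower. The 3 were *Ptprb* at -1.59 (adjusted p = 0.000566 by edgeR), the phosphatase VE-PTP that acts on VE-cadherin and TIE2, *Cdh5* at -1.20 and *Tek* at -1.20. Of the receptor traffic genes 10 of 14 were below 0, with 1 called lower by edgeR and 2 called by DESeq2. The edgeR call was *Efnb2* (-1.59), an arterial ephrin that promotes uptake of KDR and FLT4. Of the VEGF-induced genes 5 of 9 were below 0 and 1 was called lower, *Dll4*, which had 77.2 and 116 CPM in the libraries. The early response genes *Nr4a1* (427 and 132 CPM) and *Egr1* (268 and 127 CPM) were abundant and did not pass.

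Of the hypoxia genes upstream of or beside *Vegfa*, 4 of 14 were below 0, with 1 called lower by edgeR and 2 called by DESeq2. The edgeR call was *Epas1* (HIF-2α), at -1.88 (adjusted p = 0.00015 by edgeR). It also went with *Nrp1* between cells (0.60 and 0.65). *Ldha*, with 1020.2 and 1124 CPM, was at 0.79 and did not pass, and *Hif1a* was at 0.26. Of 12 transcription factors of endothelial receptor genes 8 were below 0 and *Sox17* was called lower (-2.12), while *Elk3*, *Lmo2*, *Fli1* and *Ets1*, the most abundant, did not pass. Of the class 3 semaphorins and plexins 1 of 8 was called, *Plxnb1*, with 1 count against 225 in replicate 1 and 0 against 38 in replicate 2, from 4 and 3 cells in all. *Plxna1*, *Plxnb2* and *Plxna2* were the most abundant there, at mean levels of 47.8, 49.7 and 45.2 CPM, against 548 CPM for *Plxnd1*. Of the VEGF-C processing and lymphatic genes 1 of 2 was called lower, *Lyve1* (-1.21), with 725 and 902 CPM. *Prox1*, the lymphatic master regulator, had counts in 1 cell, and *Ccbe1* and *Adamts3*, needed to process VEGF-C, had 6.94 and 12.7 CPM in replicate 1, from 1 and 8 of 43 cells, and 0 counts in replicate 2. Of the other ligands *Vegfb* alone was tested and did not pass (0.36), with opposite directions in the libraries.

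**Figure D5:**
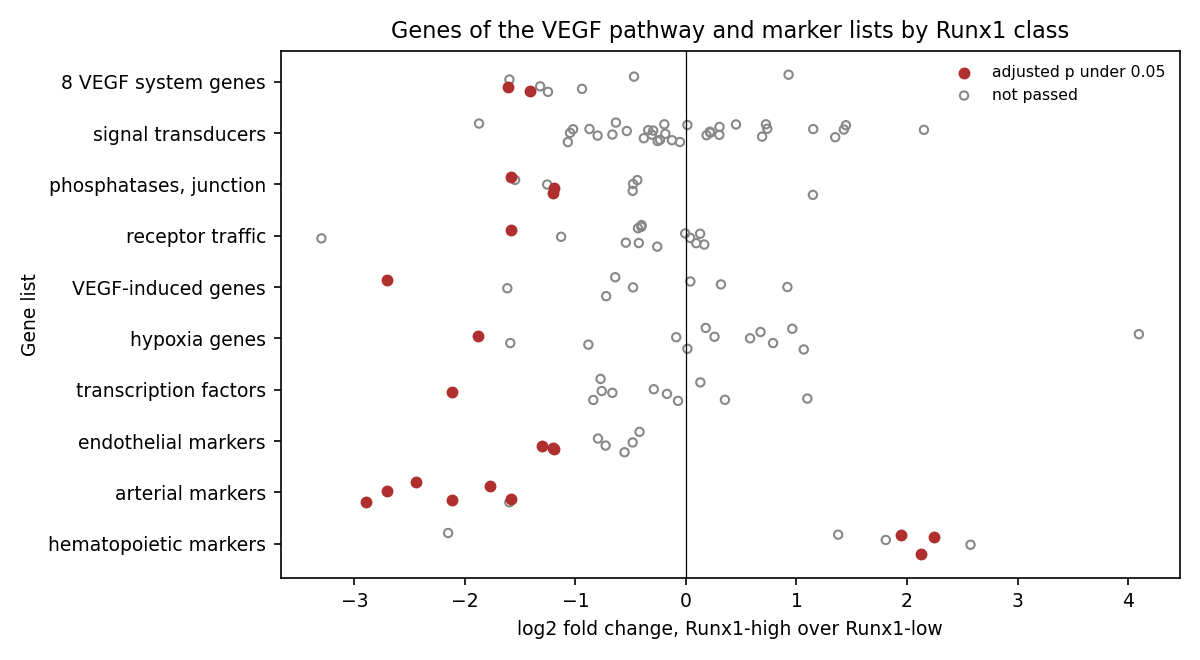
Log2 fold changes of Runx1-high over Runx1-low cells (horizontal axis) for the 8 genes and for 111 entries of the pathway and marker lists, filled where the adjusted p was under 0.05 by edgeR with the library term. Calls lie above 0 among hematopoietic markers and below 0 in every other row shown except the signal transducers, which have none. Of the lists shown, 8 entries with no count in a class of a library are left out. Not shown are the lists of other ligands, semaphorins and plexins, VEGF-C processing and lymphatic genes, and venous, mesenchymal, erythroid, macrophage, visceral endoderm and megakaryocyte markers.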

How the data were processed

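Counts per gene and cell of yolk sac PK44 cells were deposited in 2 tables, one per library. The authors assigned reads to cells by barcode, mapped them to mm10 with HISAT2 2.1.0, counted them with HTSeq (no version or strand setting is given in the sources used here) and removed duplicates by UMI, so the deposited counts are not normalized. The study kept cells with over 2000 genes and over 10000 transcripts. To avoid wells that might hold several cells, it also set upper limits on reads and on genes (10000). All 87 cells in the tables were used, without a doublet caller, as cells were picked by mouth pipette per the labels. By the limits on genes and counts 86 pass, as 1 cell of replicate 1 has 1941 genes (reads were not given). CPM, shares with exact (Clopper-Pearson) 95% intervals and Spearman correlations within a library were computed from the counts. *Nrp2* overlaps an antisense gene that was not among the genes of the files.

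Sums per library and Runx1 class were compared with edgeR 4.0.16 in R 4.3.3 (filterByExpr, TMM, glmQLFit, glmQLFTest, Benjamini-Hochberg, threshold 0.05), checked on simulated data. The replicate number pairs the sums, because each library gave a Runx1-high and a Runx1-low sum, and the library was a block (deviations of the 2 sums of a library correlated at 0.197 over 10630 genes). Alternatives were no replicate block, DESeq2 1.42.0, other size factors, no filter, other divisions by Runx1, thinned cells (20000 or 50000 counts, leaving out 1 or 7 shallower cells of replicate 1), no collagen-rich cells and single libraries. Named were the 8 genes, Runx1, the genes called in each list and up to 4 of its most abundant. The members and lists were chosen with earlier results of these data known. Gene positions came from GENCODE M21 (GRCm38) and promoters from RefSeq. Tables and figures used Python 3.11.15, pandas 2.3.3, numpy 2.4.6, scipy 1.17.1 and matplotlib 3.10.9.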

Additional observations from a re-analysis of the deposited data

How the results depend on the processing

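The number of genes called between Runx1 classes (166 by edgeR with the library as a block) was 294 with DESeq2, 5 for cells with a Runx1 count against cells without one, 52 with cells thinned before the division and the sums (3 higher and 49 lower), 91 with cells thinned before the sums only, and 1 with no replicate block. It was 114 to 179 under the other 5 settings run. Of those 166 genes, 160 were among the 294 and 43 among the 52. Thinning left 6878 and 6890 genes to test in place of 10629. The cause of the changes in the number of genes called was not tested.

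*Kdr* and *Nrp1* were lower in Runx1-high cells under every setting run. *Kdr* did not pass for cells with a Runx1 count against none (-1.29), with cells thinned before the division and the sums (-1.50) and with no replicate block (-1.47). *Nrp1* did not pass in these settings (-0.51, -1.08 and -1.42) or with cells thinned before the sums only (-0.86). *Flt1* passed with other size factors (-1.34) and without the collagen-rich cells (-1.71, or -1.45 with the division by Runx1 unchanged). *Flt4* turned to -0.53 with cells thinned before the division and the sums. In single libraries, with 1 sum per class and so no test, *Flt4* ran from -0.18 to 2.20, *Vegfa* from -1.90 to 0.061, *Kdr* from -2.25 to -0.90 and *Nrp1* from -1.52 to -1.23. *Vegfa* fell below the low-count filter in both thinned settings. Under the correlation alternatives, 14 of 196 means over the libraries between the 8 genes and 1 of 56 with *Runx1* changed sign, as did 20 of 280 and 2 of 80 values of single libraries. Of the 8 genes, *Vegfa*, *Nrp2* and *Flt4* had the fewest cells with 10 or more counts, at 7, 28 and 24 of 87. The part of depth in this was not tested.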
